A study of Canis lupus familiaris with 16 samples.

Results

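The nuclear genes for subunits of the oxidative phosphorylation system were examined in 16 canine soft tissue sarcomas. Genes were included by symbol alone, through naming patterns for the subunits of each complex, so a match need not be a structural subunit. For complex I the patterns were NDUFA, NDUFB, NDUFC, NDUFS or NDUFV with a number, and for complex II SDHA to SDHD. For complex III they were symbols beginning with UQCR, and CYC1. For complex IV they were COX4 to COX8 with their letters, and for complex V symbols beginning with ATP5. This rule used names and no measured values, and it gave 74 of the 41818 genes counted. NDUFA4 is grouped with complex IV, where its protein resides, so that complex I held 36 genes, complex II 4, complex III 8, complex IV 10 and complex V 16.

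Complexes I and II pass electrons from NADH and succinate to ubiquinone, complex III passes them to cytochrome c, and complex IV hands them to oxygen. Complexes I, III and IV pump protons across the inner mitochondrial membrane, and complex V, the ATP synthase, uses the return flow to make ATP. Apart from complex II, each complex joins subunits encoded in the nucleus with others encoded by mitochondrial DNA. Mitochondrially encoded subunits were not analysed here, nor were the complex IV genes COX6A1, COX6B1, COX6C, COX7A2, COX7B, COX7C, COX6B2, COX8B and COX8C. Others absent from the analysis include UQCRB of complex III and ATP5PB and ATP5PD of complex V. The sums given below by complex are therefore sums of part of each complex, for complexes I, III, IV and V.

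RNA came from archived, formalin-fixed, paraffin-embedded tumor sections of dogs of several breeds. By the molecular identity given in the labels there were 4 fibrosarcomas (FS, dogs aged 9 to 13 years), 6 peripheral nerve sheath tumors (PNST, 8 to 13 years) and 6 perivascular wall tumors (PWT, 2 to 14 years), with no normal tissue used here. Tumor names begin with S1 or S2: the 9 S1 tumors were sequenced in 3 runs each and the 7 S2 tumors in 1 run, and the runs of a tumor were summed. FS held 3 S1 tumors and 1 S2 tumor, PNST 5 and 1, and PWT 1 and 5, so type and prefix were unevenly crossed. Molecular identity was itself assigned with the help of expression, and by histological diagnosis S2-08 was an FS and S1-10 a PWT. S1-04 and S1-05 carry identical label entries for breed, age, site and size and may come from 1 dog. Every group was a set of whole tumor sections, so each tumor holds stroma, vessels and other cells as well as tumor cells.

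Reads counted on genes ranged from 507728 (S1-12) to 4311876 (S1-03) per tumor, and 22.9% to 30.6% of the reads listed for a tumor fell on genes. Cell type markers did not follow the type names in every case. The 9 pericyte markers summed to 622 to 1239 CPM, counts scaled to a common library size, in FS, 380 to 745 in PNST and 368 to 692 in PWT, and the 6 smooth muscle markers had their highest median in FS (362) and their lowest in PWT (101). Among 8 Schwann cell markers, 3 had enough counts to be tested. Skeletal muscle RNA was high in S1-11, S1-07 and S2-09, where ACTA1 stood at 316, 193 and 29.8 CPM, against at most 1.82 elsewhere.

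The subunit genes together took 0.120% to 0.210% of the counts on genes, 716 to 6288 counts per tumor. Of the 74 genes, 69 passed the filter of 10 counts in at least 4 tumors and were tested among 15408 genes. The genes that did not pass were ATP5ME (1 count in all 16 tumors), COX7B2 (0 counts), COX6A2 (8), COX4I2 (34) and COX5A (76). Mean levels over the tumors ran from 3.40 to 201.2 CPM among the tested genes, and the coefficient of variation over tumors had a median of 39.8% (24.2% to 74.5%). CPM is not corrected for transcript length, so levels are compared below between tumors and not between genes.

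The member with the highest mean CPM in each complex was present in every tumor. NDUFS1, a core iron-sulfur subunit of complex I, had a mean of 73.1 CPM and ranged from 33.5 (S1-11) to 117 (S2-07). SDHA, the flavoprotein that oxidizes succinate, ranged from 26.2 (S2-06) to 100.3 (S1-03). UQCRH, the hinge protein of complex III, ranged from 25.1 (S2-03) to 67.9 (S1-07). COX4I1, a regulatory subunit of complex IV, ranged from 15.1 (S2-04) to 52.4 (S2-06). ATP5F1B, the catalytic beta subunit of the ATP synthase, ranged from 89.0 (S1-12) to 373 (S2-08). The extremes of these 5 genes fell in tumors of all types. None of the 5 passed the test in any comparison by type or prefix.

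The means of the summed level were 1686 CPM in FS, 1680 in PNST and 1618 in PWT, while single tumors ranged more widely. The summed level of all 74 genes was lowest in S2-03 (PWT, 1068 CPM) and S1-12 (FS, 1300 CPM) and highest in S2-07 (PNST, 2153 CPM), S1-02 (FS, 1982) and S1-11 (FS, 1938). In S2-03, 60 of the 69 tested genes (87%) lay below their median over tumors, against 47.9% of all genes tested, and in S2-07 only 14 did. S2-03 also had the highest share of reads outside genes (66.7%), the lowest share with more than 1 alignment (9.11%) and the lowest sum of cytosolic ribosomal protein genes (6717 CPM, against 8204 to 19570 in the others). S1-12 had the fewest counts of all tumors and was the lowest tumor for 16 members. The part of these library features in the levels was not tested.

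By complex, the types overlapped throughout. The 36 complex I genes summed to 575 ± 129 CPM in FS (SD, n = 4), 593 ± 83.9 in PNST (n = 6) and 553 ± 104 in PWT (n = 6). Complex II summed to 135 ± 16.6, 150 ± 29.8 and 145 ± 14.5 CPM in the same order. Complex III summed to 186 ± 39.5, 179 ± 16.7 and 155 ± 36.5 CPM. In every one of these the difference between type means was smaller than the SD of at least 1 of the groups. Complex IV summed to 138 ± 46.7 CPM in FS, 117 ± 14.0 in PNST and 111 ± 17.6 in PWT, the widest gap in proportion, and the FS tumors spanned the range of all 16, from 74.4 (S1-12) to 177 (S1-02). Complex V summed to 652 ± 152, 642 ± 134 and 654 ± 167 CPM. In bulk tissue, fewer cells rich in mitochondria and less of these RNAs per cell cannot be told apart.

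**Figure D1:**
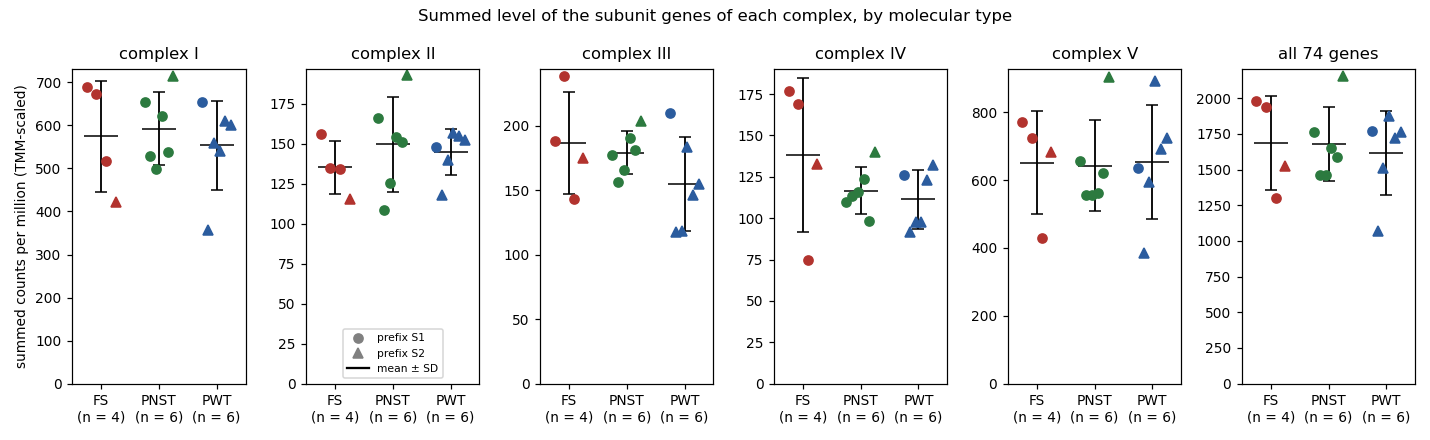
Summed TMM-scaled CPM of the genes of each complex and of all 74 genes (vertical axes, starting at 0) in FS, PNST and PWT; points are tumors, circles for S1 and triangles for S2, and bars are the mean ± SD. The types overlap in every panel, and S2-07 is the highest PNST tumor in each.

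Each type was then compared with the average of the other types, gene by gene, to ask whether single subunits marked a tumor type. The 3 comparisons rest on the same 16 tumors, so their results are not independent of each other. In FS, 1 of 69 members passed an adjusted p of 0.05 (1.45%), against 12.9% of all genes tested. At an unadjusted p under 0.05, 8 members (11.6%) stood out in FS, 6 higher and 2 lower, against 27.5% of all genes. In PNST no member passed (background 1.21%) by edgeR or DESeq2, and 5 members (7.25%) were under an unadjusted p of 0.05, against 19% of all genes. In PWT 2 members passed by edgeR (2.9%, background 7.98%) and 3 by DESeq2, which added NDUFB6, and 10 (14.5%) were under an unadjusted p of 0.05, against 26.2% of all genes. The share of subunit genes called was thus below that of all genes in FS and PWT. In PNST so few genes passed (1.21%) that no call among 69 members cannot be told from the share of all genes.

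As a group the subunit genes were shifted little. Their median log2 fold change was 0.16 in FS, 0.00 in PNST and −0.15 in PWT, where all genes had medians of 0.03, −0.01 and −0.03. In FS 46 of the 69 were above 0 (66.7%, against 51.9% of all genes), in PNST 34 (49.3% against 49.4%) and in PWT 23 (33.3% against 47.9%). The complex IV genes had the largest medians of any complex, 0.49 in FS and −0.33 in PWT, yet none of the 6 tested there passed. No member differed by more than 1 on the log2 scale in FS or PNST, and 3 did in PWT (4.35%). Among all genes 20.7% did in FS, 10.2% in PNST and 14.6% in PWT. The 95% interval lay wholly between −1 and 1, so that a 2-fold difference fell outside it, for 31 members in FS, 42 in PNST and 38 in PWT. That was 44.9%, 60.9% and 55.1% of the members, against 32.9%, 44.3% and 38.4% of all genes. The intervals of the other members reached 1 or −1 or beyond.

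**Figure D2:**
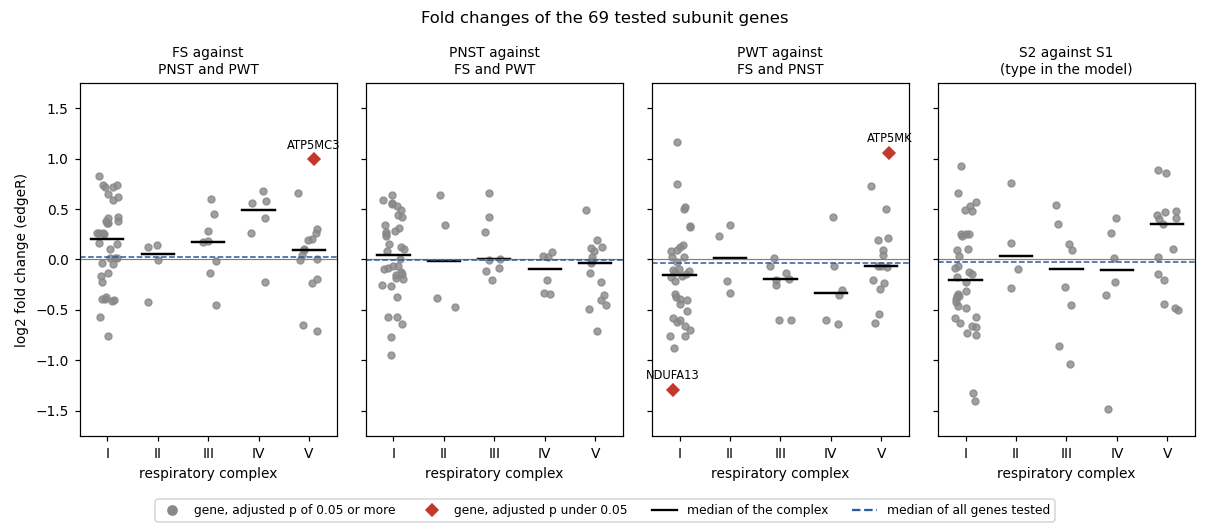
Log2 fold change (vertical axis, edgeR) of the 69 tested subunit genes in 4 comparisons, by complex; red diamonds are genes with an adjusted p under 0.05, black lines are medians of a complex and the dashed line is the median of all genes tested. ATP5MC3 in FS, and ATP5MK and NDUFA13 in PWT, are the only genes marked, and the black lines lie between −0.33 and 0.49.

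The member with the smallest adjusted p by type was in complex I. NDUFA13, an accessory subunit also described as a regulator of cell death, was at 16.3 CPM in S1-02, 23.8 in S1-11, 23.6 in S1-12 and 9.36 in S2-06 (FS). The median was 16.5 CPM in PNST (13.8 to 19.6) and 6.61 in PWT (5.16 to 10.1). Every PWT tumor was below every PNST tumor, and only the FS tumor S2-06 fell within the PWT range. For how many of all genes PWT and PNST lay apart was not determined. NDUFA13 was lower in PWT by 1.29 on the log2 scale, a 2.45-fold difference (log2 fold change −1.29, SE 0.26, 95% interval −1.84 to −0.74, edgeR adjusted p = 0.00882), and it stayed past the threshold whichever of the 16 tumors was left out (adjusted p 0.00425 to 0.0280). Its counts were small, from 6 to 66 reads per tumor.

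PWT consisted mostly of S2 tumors, and NDUFA13 was also lower in those. Among S1 tumors the only PWT, S1-07, was at 10.1 CPM, against 13.9 to 23.8 in the 8 others. Among S2 tumors the 5 PWT were at 5.16 to 8.24 CPM, against 9.36 in S2-06 and 13.8 in S2-07. PWT tumors were thus lowest within each prefix. With prefix as a term of the model, however, the log2 fold change was −0.88 with an adjusted p of 0.141, and with tumors grouped by histological diagnosis it was −0.91 with an adjusted p of 0.233. Across all genes the number called in PWT fell from 1229 to 56 with the prefix term, of which 52 were called in both.

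In FS the log2 fold change of NDUFA13 was 0.74 (SE 0.26, adjusted p = 0.0723), and in PNST 0.55 (SE 0.24, adjusted p = 0.226). The FS value passed the threshold when S2-06 was left out (0.99, adjusted p = 0.0174) or S1-07 was (0.82, adjusted p = 0.0475).

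ATP5MK, a small subunit of the membrane part of the ATP synthase, moved the other way in PWT. It was at 5.65 CPM in S1-02, 6.48 in S1-11, 3.63 in S1-12 and 6.55 in S2-06 (FS), with a median of 7.07 in PNST (4.29 to 8.84) and of 11.0 in PWT (6.76 to 23.6). Of the 6 PWT tumors 5 were above every FS and PNST tumor, and S2-03 was not. The log2 fold change in PWT was 1.06 (SE 0.29, 95% interval 0.44 to 1.68, edgeR adjusted p = 0.0356). Leaving out S1-02, S1-04, S1-10, S1-11, S2-04, S2-09 or S2-11 raised the adjusted p to between 0.0509 and 0.128 (highest without S2-11, where the log2 fold change was 0.79). With the prefix term it was 0.81 with an adjusted p of 0.331, and with histological groups 0.76 with an adjusted p of 0.319. Among S1 tumors S1-07 stood at 10.1 CPM against 3.63 to 7.48 in the others, whereas among S2 tumors PWT (6.76 to 23.6) lay above S2-06 (6.55) and overlapped S2-07 (8.84). Counts of ATP5MK were between 2 and 32 per tumor. NDUFB6, an accessory subunit of complex I, was at 7.53 to 27.5 CPM in PWT (median 9.45), 4.32 to 8.48 in FS and 2.88 to 12.7 in PNST. The types overlapped, and its log2 fold change in PWT was 1.16 (SE 0.38, edgeR adjusted p = 0.0633).

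**Figure D3:**
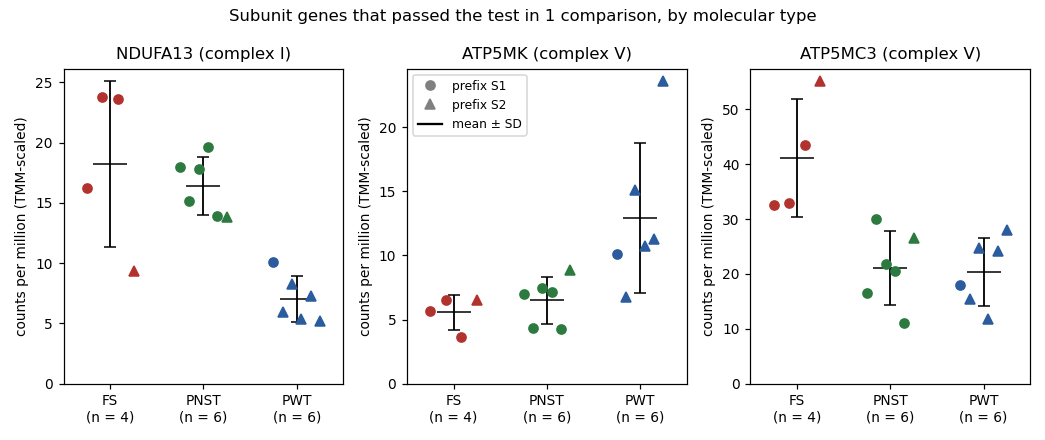
TMM-scaled CPM of NDUFA13, ATP5MK and ATP5MC3 (vertical axes, starting at 0) in FS, PNST and PWT; points are tumors, circles for S1 and triangles for S2, and bars are the mean ± SD. NDUFA13 is lowest in PWT (5.16 to 10.1), ATP5MK is highest there in 5 of 6 tumors, and ATP5MC3 is above 32 only in the 4 FS tumors.

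The member that passed in FS was ATP5MC3, which encodes subunit c, the protein of the rotating membrane ring of the ATP synthase. It was at 32.5 CPM in S1-02, 33.0 in S1-11, 43.6 in S1-12 and 55.2 in S2-06 (FS), against a median of 21.2 in PNST (11.1 to 30.0) and of 21.1 in PWT (11.8 to 28.0). The 4 FS tumors were above all the others, and ATP5MC3 was the only member whose FS tumors did not overlap the rest, as was the case for 3.21% of all genes. The log2 fold change was 0.99, a 1.99-fold difference (SE 0.26, 95% interval 0.44 to 1.54, edgeR adjusted p = 0.0186). With the prefix term it was 1.07 with an adjusted p of 0.0135 by edgeR. Without S2-06, the highest tumor, it was 0.82 with an adjusted p of 0.0789, and with histological groups 0.71 with an adjusted p of 0.241.

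Subunit c is also encoded by ATP5MC1 and ATP5MC2, which yield the same mature protein. These genes were chosen for mention after their values were seen. ATP5MC1 had a median of 26.6 CPM in FS (21.6 to 30.9), 18.5 in PNST (14.96 to 23.8) and 14.5 in PWT (7.96 to 18.4). Its FS tumors overlapped PNST and were all above the PWT tumors, a separation whose share among all genes was not determined. Its log2 fold change was 0.66 in FS (adjusted p = 0.0655) and −0.63 in PWT (adjusted p = 0.0799), neither past the threshold. ATP5MC2 had a median of 11.3 CPM in FS, 13.7 in PNST and 11.4 in PWT, with a log2 fold change of −0.23 in FS (SE 0.37, adjusted p = 0.741). Reads that align equally well to these genes or to processed copies of them were not counted, so their separate levels are uncertain.

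The other members with the smallest unadjusted p in FS and PNST did not pass over all genes. In FS, the lower ones included ATP5F1C, the gamma subunit of the central stalk (log2 fold change −0.71, adjusted p = 0.172), and ATP5MK (−0.65, adjusted p = 0.243). ATP5F1C was at 14.5 to 59.5 CPM in FS, 39.9 to 86.7 in PNST and 43.0 to 124 in PWT. The ranges of the 3 types overlapped. In PNST the higher ones were SDHA (0.64, adjusted p = 0.138), UQCR10, a small subunit of complex III (0.65, adjusted p = 0.223), and NDUFA13. The lower ones there were the complex I accessory subunit NDUFC1 (−0.95, adjusted p = 0.158), NDUFB6 (−0.77, adjusted p = 0.293) and the peripheral stalk subunit ATP5PF (−0.70, adjusted p = 0.301). The PNST tumor S2-07 stood well above the other PNST tumors in the last of these, at 25.4 CPM against 6.91 to 12.1.

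Complex II, whose subunits act both in the respiratory chain and in the citric acid cycle, showed no call in any comparison. SDHA was at 58.3, 62.1, 39.9 and 26.2 CPM in the FS tumors S1-02, S1-11, S1-12 and S2-06, with a median of 78.3 in PNST (48.9 to 100.3) and of 52.7 in PWT (35.4 to 64.5). PNST held the 4 highest values and overlapped both other types. SDHB, the iron-sulfur subunit, ranged from 1.82 to 12.7 CPM in FS, 5.27 to 16.3 in PNST and 3.68 to 16.7 in PWT. The membrane anchors SDHC and SDHD had medians of 48.5 and 30.6 CPM in FS, 35.9 and 22.9 in PNST, and 50.4 and 35.7 in PWT. Their log2 fold changes by type lay between −0.47 and 0.34.

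Tissue-restricted isoforms of complex IV were scarce. COX6A2, of heart and skeletal muscle, had at most 3 counts in a tumor (S1-11), and COX4I2, of lung, at most 10 (S1-03). COX7B2 had none in any tumor, which leaves up to 3 counts per tumor as the limit. COX7A1, another heart and muscle isoform, was at 7.78, 9.19, 9.08 and 2.81 CPM in the FS tumors S1-02, S1-11, S1-12 and S2-06, with a median of 4.53 in PNST (1.11 to 6.16) and of 2.96 in PWT (0 to 10.3). The types overlapped. Of the tumors with high ACTA1, S1-11 had the second highest COX7A1 (9.19 CPM), S1-07 was at 7.30 and S2-09 at 3.22, and the highest value was in S2-11, where ACTA1 was at 0.737 CPM. Of the widely expressed forms, COX4I1, the counterpart of COX4I2, had medians of 49.4, 39.4 and 33.7 CPM and COX8A, whose restricted forms were not analysed here, of 19.5, 16.4 and 10.2 CPM in FS, PNST and PWT. Neither passed the test in a comparison.

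S2 tumors were compared with S1 tumors with type in the model. No member and no other gene passed (background 0%) by edgeR, and DESeq2 called 1 member, NDUFS7. At an unadjusted p under 0.05, 13 members (18.8%) stood out, 5 higher and 8 lower in S2, against 13% of all genes (2001). The lower ones with the smallest p were NDUFS7 and NDUFS6, a core and an accessory subunit of the matrix arm of complex I, and UQCR11, a small subunit of complex III. NDUFS7 was at 9.21 to 17.8 CPM in S1 (median 14.6) and 2.34 to 8.84 in S2 (median 6.45). The prefixes were narrowly apart, the closest tumors being S1-05 (9.21) and S2-07 (8.84). The share of all genes apart in this way was not determined. The S2 values rest on few reads, from 3 in S2-04 to 16 in S2-07 and S2-08. Its log2 fold change was −1.40 (SE 0.36, 95% interval −2.16 to −0.64, edgeR adjusted p = 0.168). NDUFS6 was lower by a log2 fold change of −1.33 (adjusted p = 0.231) and UQCR11 of −1.04 (adjusted p = 0.237), neither past the threshold. Without S1-07, the highest tumor for UQCR11, its value was −0.39.

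The higher ones in S2 were SDHD (0.76, adjusted p = 0.245), ATP5PO, a stalk subunit of the ATP synthase (0.89, adjusted p = 0.299), and NDUFB6 (0.93, adjusted p = 0.344, or 0.42 without S2-07). SDHD was at 10.4 to 30.9 CPM in S1 (median 24.8) and 29.0 to 49.6 in S2 (median 43.8), overlapping only between S2-08 and the highest S1 tumors. By complex, the medians were −0.20 for complex I and 0.36 for complex V, beside −0.02 for all genes. The prefix differed in the number of sequencing runs. FS and PNST held 1 S2 tumor each and PWT held 1 S1 tumor, so prefix and tumor cannot be told apart within a type.

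Genes that build or feed the system were read from related lists. Of 41 assembly factors tested, 1 was higher and 1 lower in FS, where 12.9% of all genes were called, and 1 was higher and 1 lower in PWT, where 7.98% were. UQCC3, an assembly factor of complex III, was at 6.55 to 12.4 CPM in FS, 2.21 to 8.96 in PNST and 0.806 to 3.37 in PWT, a log2 fold change of 1.43 in FS (adjusted p = 0.0136) and −1.61 in PWT (adjusted p = 0.0167). NUBPL, which delivers iron-sulfur clusters to complex I, had the opposite order, with means of 7.28 CPM in FS, 14.7 in PNST and 20.8 in PWT (log2 fold change −1.39 in FS, adjusted p = 0.0207, and 1.06 in PWT, adjusted p = 0.0364). The PWT tumors overlapped FS in neither gene, and the share of all genes for which these types lay apart was not determined. The PWT values of UQCC3 are near the floor, however: 0.806 CPM in S2-09 corresponds to 1 read.

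Among 14 citric acid cycle genes, 2 rose and none fell in FS, which is near the 12.9% of all genes called there. In PWT 3 fell and none rose, where 7.98% of all genes were called. IDH2, the mitochondrial NADP-dependent isocitrate dehydrogenase, was at 19.4, 49.2, 41.8 and 24.8 CPM in the FS tumors S1-02, S1-11, S1-12 and S2-06. It was at 7.48 to 15.5 CPM in PNST and 2.95 to 11.9 in PWT, so that FS lay above all other tumors. FS did not overlap the rest for 3.21% of all genes. The log2 fold change of IDH2 was 1.88 in FS (edgeR adjusted p = 0.00117) and −1.40 in PWT (adjusted p = 0.0179). OGDH, of the 2-oxoglutarate dehydrogenase complex, had a log2 fold change of −0.78 in PWT (adjusted p = 0.0297). The median of the 14 was −0.08 in FS and −0.16 in PWT.

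Among 12 regulators of mitochondrial biogenesis, PPARGC1B, a transcriptional coactivator, was higher in FS (means of 17.1, 5.31 and 4.74 CPM in FS, PNST and PWT, log2 fold change 1.79, adjusted p = 0.0103). GABPA, a transcription factor, was higher in PWT (means of 58.2, 51.7 and 97.9 CPM, log2 fold change 0.84, adjusted p = 0.0475). NDUFA4L2, a relative of NDUFA4 that is also among the pericyte markers used here, was higher in FS (log2 fold change 2.26, adjusted p = 0.0169) and lower in PWT (−2.29, adjusted p = 0.0392), with 95.1 CPM in S1-11 alone. Of 17 other subunits and carriers it was the only call. For this list and the others here, the share of all genes called was 12.9% in FS, 1.21% in PNST and 7.98% in PWT. Of 69 mitochondrial ribosomal protein genes, MRPL2 was higher in PNST (1.26, adjusted p = 0.0451) and MRPS25 lower in PWT (−0.81, adjusted p = 0.0390). The 72 cytosolic ribosomal protein genes tested had medians of −0.28 in FS, 0.42 in PNST and −0.11 in PWT, with RPL10A lower in FS (−1.05, adjusted p = 0.0405) and RPL22 higher in PWT (0.76, adjusted p = 0.0407). With the prefix term IDH2, UQCC3, NUBPL, PPARGC1B and RPL10A stayed past the threshold in FS, NDUFA4L2 (adjusted p = 0.0666) did not, and none of the list genes named for PWT or PNST did (0.137 to 0.515). With histological groups none of these genes passed, the nearest being IDH2 in FS (adjusted p = 0.0541).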

How the data were processed

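The authors extracted total RNA from sections of 16 tumors, depleted ribosomal RNA, made Ion Total RNA-Seq libraries and deposited whole-number counts of reads per gene from HTSeq, not normalized. Whether reads were counted by strand is not given in the sources used here, so overlapping and antisense genes are uncertain. Runs were summed per tumor, and 5 lines that name no gene were left out. Counts (507728 to 4311876 per tumor) were tested with edgeR 4.0.16 in R 4.3.3 (TMM, quasi-likelihood test) on genes that reached 10 counts in 4 or more tumors, each type against the mean of the others, with Benjamini-Hochberg adjustment over all genes tested. A gene was called at an adjusted p under 0.05. DESeq2 1.42.0, other normalizations, filters and groupings were alternatives. Scripts were tested on simulated data, where 11% of 2-fold changes were recovered in FS, 16% in PNST, 14% in PWT and 5% for the prefix. Of 4-fold changes, 60%, 81%, 71% and 52% were recovered in the same order. Most 2-fold changes were thus missed there. In each simulation 100 genes per fold size were changed. This gave 74 calls in FS, 105 in PNST, 92 in PWT and 59 for the prefix. The data gave 1984, 186, 1229 and 0, so the recovered shares need not hold for the data. A gene that did not pass may still differ. CPM values are TMM-scaled. P-values measure the spread between tumors.

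Genes named were those called in a comparison, otherwise the 3 with the smallest unadjusted p in each direction, the member with the highest mean CPM of each complex, the SDH subunits, tissue-restricted isoforms with their counterparts, and NDUFA13. The genes and the lists were chosen with earlier results of these data known. Some genes that this rule names are not reported here.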

Additional observations from a re-analysis of the deposited data

Results flagged for a closer look

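Among 87 sets of 4 to 6 tumors of a type (the named members and the summed levels of the complexes), 7 held 1 tumor far from the others of its type by Dixon's test at the 95% level, where chance gives about 1 in 20. In PNST, S2-07, the only S2 tumor of that type, stood apart 4 times. It was high for NDUFB6 (12.7 CPM against 2.88 to 4.64), ATP5PF (25.4 against 6.91 to 12.1) and the sum of complex V (903 against 556 to 655). It was low for COX7A1 (1.11 against 4.34 to 6.16), a value that rests on 2 reads. In PWT, S1-07, the only S1 tumor of that type, was high for NDUFC1 (20.2 CPM against 5.57 to 10.3) and UQCR11 (33.1 against 5.38 to 9.67). In FS, S1-12, the tumor with the fewest counts, was low for COX4I1 (20.0 CPM against 48.6 to 52.4), a value that rests on 11 reads. In S1-07 and S2-07 the tumor and its prefix within the type cannot be told apart.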

How the results depend on the processing

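No named member changed direction. The median over the members crossed 0 for the prefix, from −0.09 to 0.07 without S1-07 and 0.05 without S2-06, and lay on either side of 0 in PNST. The number of members called in PWT was 1 with all genes of at least 1 count (NDUFA13), 1 with 10 counts in every tumor (ATP5MC1, of 18 members tested), 1 with the other types pooled as 1 group (NDUFA13, an alternative chosen after seeing the data), 0 with the prefix as a term, 0 with histological groups and 3 by DESeq2 (which added NDUFB6). In FS it was 2 with 10 counts in every tumor (ATP5MC1 and ATP5MC3) and 0 with histological groups. For S2 against S1 it was 1 by DESeq2 (NDUFS7) and 3 with no term for type (NDUFA13, NDUFB6 and NDUFS7). Over the fits that left out 1 tumor it ranged from 1 to 2 in FS (2 without S1-07, which added NDUFA13, and 2 without S2-08, which added CYC1), from 1 to 3 in PWT (1 without S1-02, S1-04, S1-10, S1-11, S2-04, S2-09 or S2-11, which lost ATP5MK, and 3 without S2-07, which added NDUFB6, or without S2-08, which added CYC1) and stayed at 0 in PNST and for the prefix. Fewer genes tested account for the calls lost under the filter of 10 counts in every tumor, which NDUFA13 and ATP5MK failed. For the others the cause was not tested. The medians over the members ranged, over the leave-outs, from 0.04 to 0.25 in FS, −0.10 to 0.08 in PNST, −0.22 to −0.07 in PWT and −0.38 to 0.07 for the prefix. Of the values of named members under the alternatives, 476 kept their side of the threshold, 15 lost it and 6 gained it. No paired analysis was possible because replicate numbers only name tumors. Depth limits low genes: the shallowest tumor had 507728 counts, and 18 of the 74 genes had 10 counts in every tumor.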
